A study of Mus musculus with 8 samples.

Results

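The immediate early genes Egr1, Egr2, Fos, Fosb, Jun, Junb, Atf3, Ier2, Dusp1 and Nr4a1 were followed in tumor-associated macrophages (TAMs) of mice with and without collectin-11 (CL-11). They were chosen by name, as the rows whose gene symbol equals 1 of these 10 symbols, out of 21051 genes listed in the sample tables, and all 10 had values. CL-11, encoded by Colec11, is a soluble C-type lectin that binds sugars such as fucose and mannose and can start the lectin pathway of complement. B16, a pigmented mouse melanoma line of C57BL/6 origin, was grown under the skin of wild-type C57BL/6 mice (genotype WT) or of C57BL/6 mice homozygous for the Colec11 deletion (genotype Colec11-/-), and tumors were taken on day 14. The methods describe male mice of 8 to 10 weeks, a deletion backcrossed for at least 10 generations, and WT littermates as controls. The CD45+F4/80+ cells were sorted and their RNA sequenced in 4 libraries of each genotype, here WT1 to WT4 (TAM-WT) and KO1 to KO4 (TAM-KO). The deletion is present in every cell of the host, whereas the injected tumor cells were of the same line in both groups. The study describes the replicates of these FPKM values as mice, and the labels number the libraries without naming animals.

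An immediate early gene is one whose transcription starts within minutes of a stimulus without any new protein being made. Growth factor, cytokine, stress and pattern recognition receptors signal through the ERK, JNK and p38 kinases to factors already bound at these genes, chiefly SRF with its ETS partners at CArG boxes and CREB or ATF proteins at cAMP response elements (CREs). The transcripts and most of the proteins decay quickly, so their level in a macrophage follows recent stimulation. The products are mainly transcription factors: EGR1 and EGR2 are zinc finger proteins, FOS, FOSB, JUN, JUNB and ATF3 are basic leucine zipper (bZIP) proteins that pair into AP-1 and related dimers, and NR4A1 is an orphan nuclear receptor. IER2 is a nuclear protein of the same early wave, and DUSP1 is a phosphatase that switches off p38 and JNK.

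The members shared a compact gene structure that the choice by name did not use. In the GENCODE vM21 transcript with the longest coding sequence, 9 of 10 members had at most 4 exons, against 19.7% of the 12198 tested genes with such a transcript, and the exception was Nr4a1 with 8 exons. Jun, Junb and Ier2 each had 1 exon. Ier2 and Junb both lie on chromosome 8 (RefSeq, GRCm38.p6), at 84661331 to 84662852 and 84976909 to 84978748, and the other 8 members are on 8 other chromosomes, Egr2 on chromosome 10 at 67534469 to 67542188 and Atf3 on chromosome 1 at 191170296 to 191183333. The genomic span was at most 10000 bases for 8 of 10 members, against 25.5% of tested genes, and ranged from 1522 bases for Ier2 to 20527 bases for Nr4a1. At least 3 AUUUA pentamers, the core of AU-rich elements that are known to shorten the life of a transcript, lay in the 3′ untranslated region of 6 of 10 members, against 34.2% of tested genes. Fos, Jun and Dusp1 had 4 pentamers each, and Ier2 had 0.

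Windows of 300 bases around the start site were available from RefSeq (GRCm38.p6) for 8 of the members, all but Egr1 and Ier2. They are shown because the members moved together in the libraries and because these are the elements through which such genes are known to be induced. The CRE core TGACG, read on both strands, was present in a window of 7 of the 8 members, all but Jun, against 23.0% of 27025 genes with a window. The full CRE TGACGTCA, which contains the core, was found in Dusp1 alone and in 2.03% of all genes. A CArG box was found in Egr2 alone and in 1.81% of all genes, and the AP-1 site TGANTCA was found in 0 of 8 members and in 8.97% of all genes. GC content had a median of 62.3% over the 12 member windows and of 52.7% over all windows, which the shares above do not take into account. A match describes the letters in the window and not binding. Sites more than 250 bases before the start, or that differ from these patterns, were not seen, so a missing match does not show that a gene lacks the element. The 250 bases before the start are printed for Egr2 and Atf3, which passed the test below, for Fos and Dusp1, the members of highest level, and for Nr4a1, whose window held 4 cores. Each reads 5′ to 3′ on the strand of the gene, and capitals mark the CArG box, the CRE and the cores on either strand.
Egr2, chr10:67537619-67537868, forward strand: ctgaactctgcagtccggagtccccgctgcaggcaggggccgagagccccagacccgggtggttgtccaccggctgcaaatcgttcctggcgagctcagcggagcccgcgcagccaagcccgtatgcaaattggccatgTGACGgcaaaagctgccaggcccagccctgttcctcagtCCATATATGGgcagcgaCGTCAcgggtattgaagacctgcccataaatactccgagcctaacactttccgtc
Atf3, chr1:191183334-191183583, reverse strand: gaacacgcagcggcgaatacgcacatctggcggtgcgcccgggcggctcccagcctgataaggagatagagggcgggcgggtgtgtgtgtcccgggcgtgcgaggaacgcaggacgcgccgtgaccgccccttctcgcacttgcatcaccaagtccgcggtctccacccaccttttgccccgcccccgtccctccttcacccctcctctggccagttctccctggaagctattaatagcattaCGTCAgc
Fos, chr12:85473640-85473889, forward strand: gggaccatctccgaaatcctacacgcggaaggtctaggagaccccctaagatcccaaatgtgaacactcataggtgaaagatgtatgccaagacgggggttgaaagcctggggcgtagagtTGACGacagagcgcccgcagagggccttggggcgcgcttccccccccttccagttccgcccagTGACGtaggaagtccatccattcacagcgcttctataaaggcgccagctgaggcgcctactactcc
Dusp1, chr17:26508473-26508722, reverse strand: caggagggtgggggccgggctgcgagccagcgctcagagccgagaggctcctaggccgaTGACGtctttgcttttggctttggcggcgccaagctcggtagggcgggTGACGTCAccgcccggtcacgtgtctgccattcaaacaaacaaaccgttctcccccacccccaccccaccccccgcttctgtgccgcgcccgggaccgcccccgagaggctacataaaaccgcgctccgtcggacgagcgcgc
Nr4a1, chr15:101266596-101266845, forward strand: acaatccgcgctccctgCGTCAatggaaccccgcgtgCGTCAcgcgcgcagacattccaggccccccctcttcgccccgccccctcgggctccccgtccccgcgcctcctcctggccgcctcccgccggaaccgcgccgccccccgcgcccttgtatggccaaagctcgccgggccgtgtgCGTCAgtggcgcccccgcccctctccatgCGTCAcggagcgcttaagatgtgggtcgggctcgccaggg
In Egr2 the CArG box began 72 bases before the start and the cores 111 and 55 bases before it. In Atf3 the only core began 7 bases before the start. The full CRE of Dusp1 began 143 bases before its start.

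Some facts of the libraries bear on every result below. Reads on genes numbered from 16225362 to 17280267 in the 7 libraries with a complete table. The table of KO1 does not list 5311 genes, among them every member except Dusp1. The KO1 values of the other 9 members were taken from a series-wide table of the authors' own comparison, which lists 3996 genes. That table is labelled as differentially expressed genes, so the genes with a KO1 value from it are a selected set. Where the tables could be compared, 2808 of 2808 KO1 genes were equal in both within 0.006. Colec11 had at most 4 reads in any library, so its count does not check the genotype labels. The macrophage markers Adgre1 (encoding F4/80), Csf1r and Cd68 were high in all 7 complete libraries, with Adgre1 between 182 and 239 FPKM. Markers of other cells differed between libraries, as given further on, and WT1 stood apart from WT2 to WT4 in its T or NK cell markers.

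All 10 immediate early genes had lower mean levels in TAM-KO than in TAM-WT, and they did so in step. Levels are given as FPKM, which corrects for transcript length and library size. The summed level of the 10 genes was 1651 in WT1, 3065 in WT2, 3798 in WT3 and 3200 in WT4, and 2201 in KO1, 1209 in KO2, 1324 in KO3 and 1830 in KO4. WT2 to WT4 therefore lay above every TAM-KO library, whereas WT1 lay within the TAM-KO range. The same held gene by gene: WT2 to WT4 were above all 4 TAM-KO libraries for 10 of 10 members, and the 4 TAM-WT libraries cleared all 4 TAM-KO libraries for 0 of 10. WT1 was set apart in this way after its values were seen. The share of all genes was not taken for either count, so neither can be set against it. WT1 was the lowest TAM-WT library for 10 of 10 members, which was so for 10.6% of all tested genes. KO1 exceeded WT1 for 10 of 10 members, by a ratio of 1.10 to 2.36 with a median of 1.26, whereas it did so for 59.2% of 9396 tested genes listed in all 8 sample tables. WT1 was in turn above KO2 and KO3 for 10 of 10 members and below KO4 for 8. Against KO2 to KO4 alone, the 4 TAM-WT libraries did not overlap for 2 members, Egr2 and Atf3, and for 7.36% of tested genes. In sorted cells, fewer cells that express a gene and less RNA per cell cannot be told apart.

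**Figure D1:**
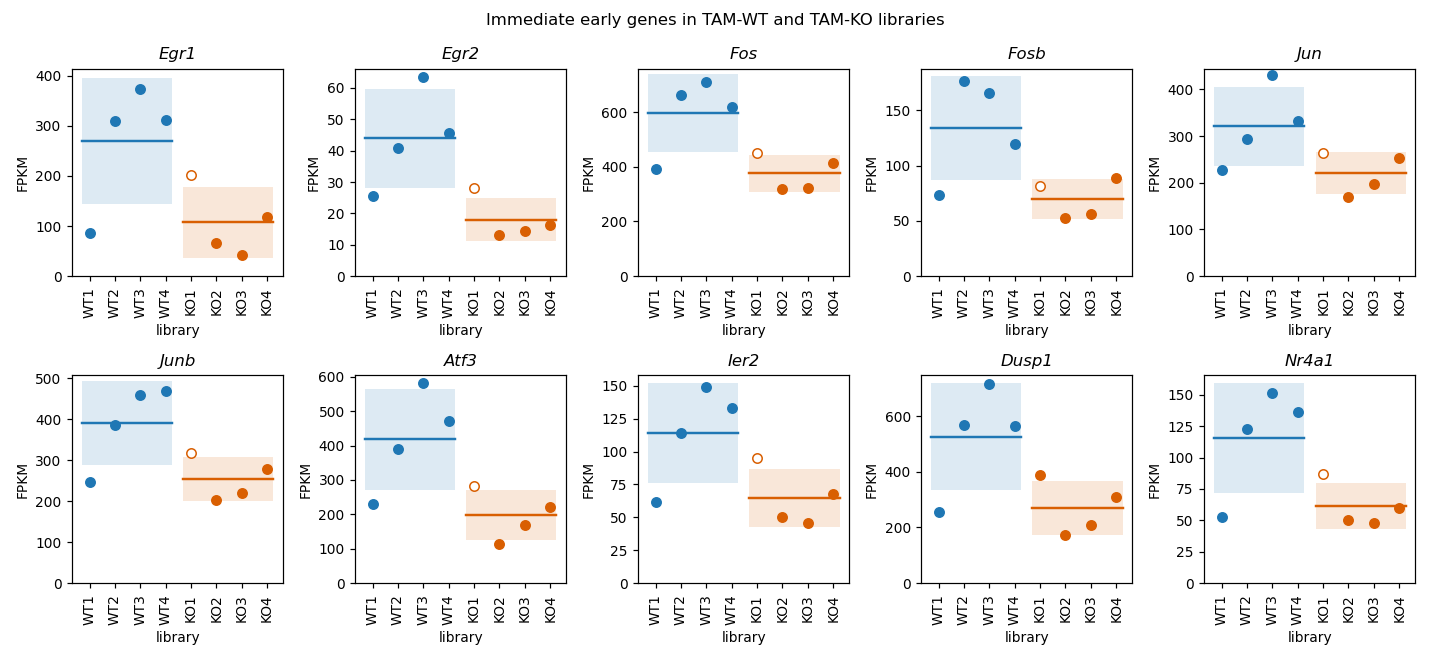
FPKM (vertical axis, from 0) of each immediate early gene in the 4 TAM-WT libraries (blue) and the 4 TAM-KO libraries (orange). Points are libraries, lines are group means and shaded bands are ±1 SD (n = 4 each), and open points are KO1 values taken from the series-wide table. In every panel WT2 to WT4 lie above the 4 TAM-KO libraries and WT1 lies below KO1. WT1 was set apart from WT2 to WT4 after its values were seen, and the share of all genes with that split was not taken.

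The EGR genes had the widest spread between the groups. Egr1 measured 86.0 FPKM in WT1, 310.4 in WT2, 373 in WT3 and 311 in WT4, and 203 in KO1, 66.1 in KO2, 42.7 in KO3 and 118 in KO4. WT1 was under both KO1 and KO4, and KO1 was the highest TAM-KO library. The means were 270.2 ± 126 in TAM-WT and 107 ± 70.9 in TAM-KO (SD, n = 4 each), a ratio of 2.52. The fitted log2 fold change of Egr1 (TAM-KO over TAM-WT) was -1.95 ± 0.55 (SE), with an edgeR adjusted p of 0.0582. The largest fitted difference of the 10 thus did not pass. For every member but Dusp1 the fit used KO2 to KO4 only, unless KO1 is said to be included. With KO1 included, Egr1 had a log2 fold change of -1.45 ± 0.55 (edgeR adjusted p = 0.1145). Egr2, a relative of Egr1 with known roles in myeloid cells, measured 25.5 FPKM in WT1, 41.0 in WT2, 63.5 in WT3 and 45.6 in WT4. In TAM-KO it measured 28.0 in KO1, 13.3 in KO2, 14.5 in KO3 and 16.2 in KO4. Only KO1 reached into the TAM-WT range. Egr2 fell by 1.73 ± 0.31 on the log2 scale (SE, edgeR adjusted p = 0.022), and by 1.43 ± 0.33 with KO1 included (adjusted p = 0.0362). It was the only member that passed both fits.

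Fos, whose product is the founding AP-1 partner of JUN, had the highest level of the 10. It measured 392 FPKM in WT1, 664 in WT2, 710.3 in WT3 and 619 in WT4, and 452 in KO1, 318 in KO2, 322 in KO3 and 415 in KO4. WT1 lay between KO3 and KO4. The means of 596 ± 141 and 377 ± 67.3 FPKM made Fos the most abundant member in both groups, with a ratio of 1.58. Its log2 fold change was -0.87 ± 0.23 (edgeR adjusted p = 0.0521), and -0.78 ± 0.21 with KO1 included (edgeR adjusted p = 0.0532). Fosb, which encodes a second FOS protein, measured 73.5, 177, 166 and 120 FPKM in WT1 to WT4. It measured 81.7, 52.4, 55.9 and 88.6 FPKM in KO1 to KO4, so WT1 was under KO1 and KO4. It was the member for which KO4 rather than KO1 was the highest TAM-KO library and WT2 the highest TAM-WT library. Its log2 fold change was -1.13 ± 0.33 (edgeR adjusted p = 0.0664), and -1.05 ± 0.29 with KO1 included (edgeR adjusted p = 0.0549).

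The JUN genes, whose products are the usual partners of FOS, differed least. Jun measured 227, 293, 431 and 331 FPKM in WT1 to WT4 and 263, 169.9, 197 and 254 FPKM in KO1 to KO4. Its log2 fold change of -0.75 ± 0.26 was the smallest of the 10 (edgeR adjusted p = 0.0964). With KO1 included the value for Jun was -0.66 ± 0.23 (edgeR adjusted p = 0.0992). Junb measured 247.5, 386, 459 and 469 FPKM in WT1 to WT4 and 318, 202, 219 and 279 FPKM in KO1 to KO4, with WT4 and not WT3 the highest library. Its log2 fold change was -0.85 ± 0.25 (edgeR adjusted p = 0.0676), and -0.73 ± 0.24 with KO1 included (edgeR adjusted p = 0.0781). For both genes WT1 lay between KO3 and KO4. Atf3, a stress-induced bZIP factor known to restrain inflammatory genes in macrophages, measured 229 FPKM in WT1, 391 in WT2, 581 in WT3 and 471 in WT4. The TAM-KO libraries held 283 FPKM in KO1, 115 in KO2, 169.5 in KO3 and 222 in KO4. WT1 was above KO2, KO3 and KO4 and under KO1. Atf3 fell by 1.42 ± 0.36 on the log2 scale (SE, edgeR adjusted p = 0.0465), and with KO1 included the value of -1.20 ± 0.35 did not pass (adjusted p = 0.0595).

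The remaining members also had WT1 as the lowest TAM-WT library and KO1 as the highest TAM-KO library. Dusp1, the MAP kinase phosphatase and the member with a value in all 8 sample tables, measured 256 FPKM in WT1, 567 in WT2, 715 in WT3 and 565 in WT4. The TAM-KO libraries measured 389 (KO1), 171 (KO2), 209.9 (KO3) and 309 FPKM (KO4). WT1 was under KO1 and KO4. The log2 fold change of Dusp1 was -1.08 ± 0.34 over 8 libraries (edgeR adjusted p = 0.0704). Nr4a1 measured 52.4, 123, 151 and 136 FPKM in WT1 to WT4 and 87.1, 49.9, 47.6 and 60.1 FPKM in KO1 to KO4. Its log2 fold change was -1.25 ± 0.35 (edgeR adjusted p = 0.0566), and -1.04 ± 0.33 with KO1 included (edgeR adjusted p = 0.075). Ier2 measured 61.5, 114, 149 and 133 FPKM in WT1 to WT4 and 95.3, 50.5, 46.1 and 67.4 FPKM in KO1 to KO4. Its log2 fold change was -1.18 ± 0.32 (edgeR adjusted p = 0.0524), and -0.94 ± 0.32 with KO1 included (edgeR adjusted p = 0.0855). By mean level in TAM-WT the order was Fos, Dusp1, Atf3, Junb, Jun, Egr1, Fosb, Nr4a1, Ier2 and Egr2, from 596 to 43.9 FPKM, and neighbours in this order differed by less than the SD of either within TAM-WT except Egr1 against Fosb and Ier2 against Egr2. Counts were not limiting, since the lowest of the 80 member values was 546 reads (Egr2 in KO2) and the highest 22325 (Fos in WT3).

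In the model fitted to all genes, 10 of 10 members had log2 fold changes below 0, from -1.95 to -0.75 with a median of -1.15, against a median of 0.0016 over the 12412 genes tested. Of these, 2 of 10 passed at an adjusted p of at most 0.05, against 5.24% of all tested genes called lower and 4.58% called higher. Adjusted p lay between 0.022 and 0.0964 for the 10 members, and the unadjusted p was under 0.05 for 10 of 10, against 15.7% of all genes with such a p in that direction. For 9 members this fit had no KO1 value. With KO1 taken from the series-wide table wherever it lists a gene, 1 of 10 passed (4.55% of all genes called lower), and log2 fold changes ran from -1.45 to -0.66. That table gave KO1 for 1188 of the 4214 genes missing from the KO1 table.

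These calls depended on WT1, on other single libraries and on the test used. Without WT1, 9 of 10 members passed (all but Jun, adjusted p = 0.0549), whereas 5.0% of all genes were called lower. Egr1 then fell by 2.25 ± 0.37 (adjusted p = 0.0186) and Nr4a1 by 1.50 ± 0.16 (adjusted p = 0.0059) on the log2 scale. With WT1 left out and KO1 filled, 8 of 10 passed (4.31% of all genes), Egr1 and Jun excepted. With WT1 and KO1 both left out, 9 of 10 passed (3.3% of all genes). Leaving out another library changed the calls over all genes as well. In either direction 1218 genes were called in the fit as designed. Without WT2 there were 2755, with 3 of 10 members passing. Without KO1 there were 682 and without KO4 1136, with 1 and 2 of 10 members passing. Without WT3 or without WT4 1 of 10 passed, Egr2 in both cases, with 0.793% and 1.94% of all genes called lower. Without KO2 or without KO3 0 of 10 passed, with 0.432% and 0.417% of all genes called lower and 10 of 10 members still below 0. With no library left out, the DESeq2 Wald test called 10 of 10 members lower, among 2253 genes called in either direction, and limma called 2 of 10. The number of calls thus turned on single libraries and on the test, while 0 of 10 members changed direction in any of these fits.

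**Figure D2:**
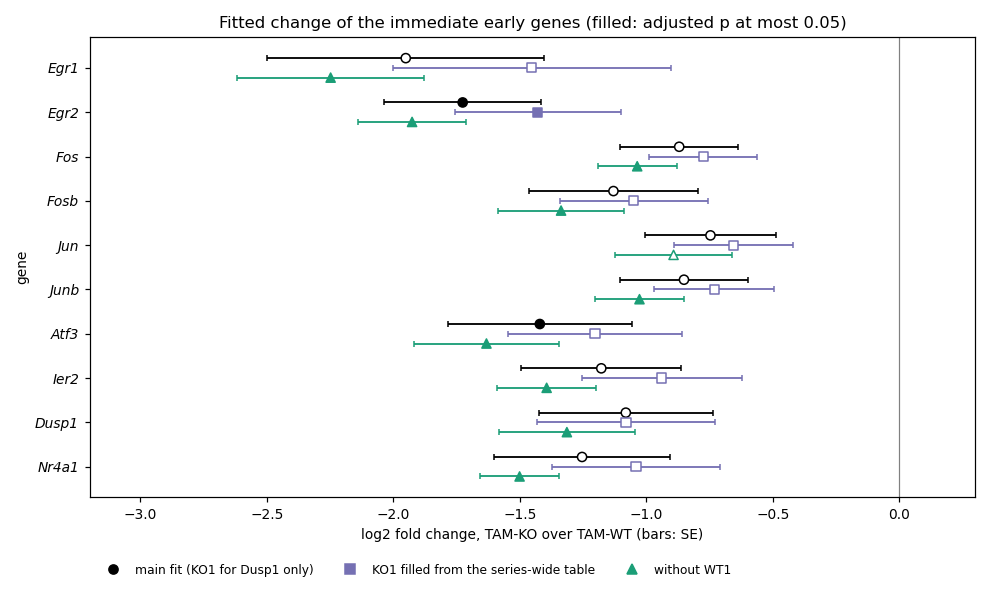
Fitted log2 fold change (horizontal axis, TAM-KO over TAM-WT) of each immediate early gene with bars of ±1 SE, in the fit as designed (circles), with KO1 filled from the series-wide table (squares) and without WT1 (triangles). Filled symbols had an adjusted p of at most 0.05: 2, 1 and 9 of the 10 genes.

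The members varied together across libraries. Over the 8 libraries, which the 45 pairs of members share, Pearson's r of log2 FPKM ranged from 0.891 to 0.987 with a median of 0.955. With each group's mean removed, r still ranged from 0.749 to 0.982 with a median of 0.929, so levels within a genotype also varied together, although the exact order of libraries differed between members. The lowest value in both cases was that of Egr2 with Fosb. WT3 was the highest of the 8 libraries for 8 members, with Fosb and Junb the exceptions, and KO2 or KO3 was the lowest for all 10. Among 10364 other genes with a mean of at least 5 CPM (counts scaled to library size), those most like the mean profile of the members over the 7 complete libraries were Ets2 (r = 0.997), Klf6, Zfp36 and Abl2 (each r = 0.995) and Cltb (r = 0.994). Ets2, an ETS transcription factor, measured 35.3, 58.4, 78.8 and 63.6 FPKM in WT1 to WT4 and 47.8, 26.5, 29.0 and 36.1 FPKM in KO1 to KO4. WT1 lay under KO1 and KO4 in Ets2 too. The gene was picked for its likeness over libraries that include WT1 and KO4, so this is no separate support. The log2 fold change of Ets2, -0.88 ± 0.27, did not pass (edgeR adjusted p = 0.0625). Abl2 and Cltb had log2 fold changes of -0.51 and -0.23 (edgeR adjusted p = 0.061 and 0.0626).

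Other early-response genes, a list of 34 that share the rapid induction but are not members, leaned the same way. Of 33 tested, 30 had log2 fold changes below 0, with a median of -0.90, against 49.7% of all tested genes below 0. Of the 33, 5 passed, all lower in TAM-KO, against 5.24% of all tested genes called lower. Egr4, at a mean of 0.122 FPKM in TAM-WT, was too low to test. Klf6 and Klf4, Krüppel-like factors of macrophages, fell by 0.98 ± 0.26 and 0.93 ± 0.23 on the log2 scale (edgeR adjusted p = 0.0452 and 0.0433). Klf4 was the one of these whose libraries did not overlap, at 29.5, 33.0, 48.3 and 42.2 FPKM in WT1 to WT4 and 24.9, 19.9, 18.7 and 26.4 FPKM in KO1 to KO4. Btg2, an antiproliferative early gene, fell by 1.46 ± 0.37 (edgeR adjusted p = 0.0452). Egr3 and Nr4a2, paralogs of members, fell by 1.26 ± 0.29 and 1.13 ± 0.27 (edgeR adjusted p = 0.0357 and 0.0389), with Egr3 at no more than 2.61 FPKM in any library. Zfp36, whose product tristetraprolin binds AU-rich elements and destabilizes early transcripts, was the most abundant of the list at a mean of 641 FPKM in TAM-WT and 373 in TAM-KO. The fitted change was -0.90 ± 0.25 on the log2 scale (edgeR adjusted p = 0.0521). The 3 genes above 0 were Ccn1, Ccn2 and Nr4a3. Nr4a3, the third NR4A receptor and named after its values were seen, measured 15.1, 25.1, 14.4 and 12.9 FPKM in WT1 to WT4 and 26.6, 27.2, 30.9 and 25.6 FPKM in KO1 to KO4. Its libraries did not overlap, in the direction opposite to Nr4a1, and its log2 fold change of 0.64 ± 0.20 did not pass (edgeR adjusted p = 0.073). With KO1 filled, 1 gene of the list passed, Klf4 (edgeR adjusted p = 0.0351), where 4.55% of all genes were called lower. Without WT1 19 passed, where 5.0% of all genes were called lower.

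Genes that act upstream of the members differed little in level. Of 21 kinases and factors, 15 had log2 fold changes above 0 and 6 below, with a median of 0.02 and a range of -0.41 to 0.21. Mapk3, encoding ERK1, was the 1 of 21 that passed, where 5.24% of all tested genes were called lower. It fell by 0.41 ± 0.10 on the log2 scale (edgeR adjusted p = 0.0362), from 121 to 143 FPKM in TAM-WT to 97.8 to 122 FPKM in TAM-KO. Mapk3 was not called when WT1, WT3, WT4, KO1, KO2 or KO3 was left out. Mapkapk2, encoding a kinase downstream of p38, had a log2 fold change of 0.0019 ± 0.08 (edgeR adjusted p = 0.99). Summed over the 21 genes the level was 726 to 756 FPKM in TAM-WT and 749.9 to 761 in KO2 to KO4. These are transcript levels and say nothing of kinase activity.

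Of 12 feedback inhibitors of the pathway tested, 2 were called lower and 1 higher, where 5.24% and 4.58% of all genes were. Dusp7, a phosphatase of ERK, fell by 0.43 ± 0.08 (edgeR adjusted p = 0.0211) and Dusp8, a phosphatase of JNK and p38, by 1.32 ± 0.33 (edgeR adjusted p = 0.0446) on the log2 scale. Spry1, an inhibitor of receptor tyrosine kinase signaling, rose by 0.70 ± 0.16 (edgeR adjusted p = 0.0323). Dusp8 did not pass with KO1 filled (adjusted p = 0.06), nor Spry1 without WT1 (adjusted p = 0.0516). The 2 most abundant genes of the list did not pass: Dusp4 had a log2 fold change of 0.20 and Nab2, a corepressor of EGR proteins, of -0.03 (edgeR adjusted p = 0.473 and 0.915). Of 15 further bZIP genes that can pair with FOS, JUN or ATF3 or bind like sites, 1 passed. It was higher in TAM-KO, where 4.58% of all tested genes were called higher. Batf2, an interferon-responsive partner of JUN proteins, rose by 1.44 ± 0.31 on the log2 scale (edgeR adjusted p = 0.0269), from 2.91 to 10.9 FPKM in TAM-WT to 15.1 to 21.9 in TAM-KO. The abundant Atf4 and Cebpb had log2 fold changes of -0.54 and -0.13 (edgeR adjusted p = 0.0613 and 0.743).

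**Figure D3:**
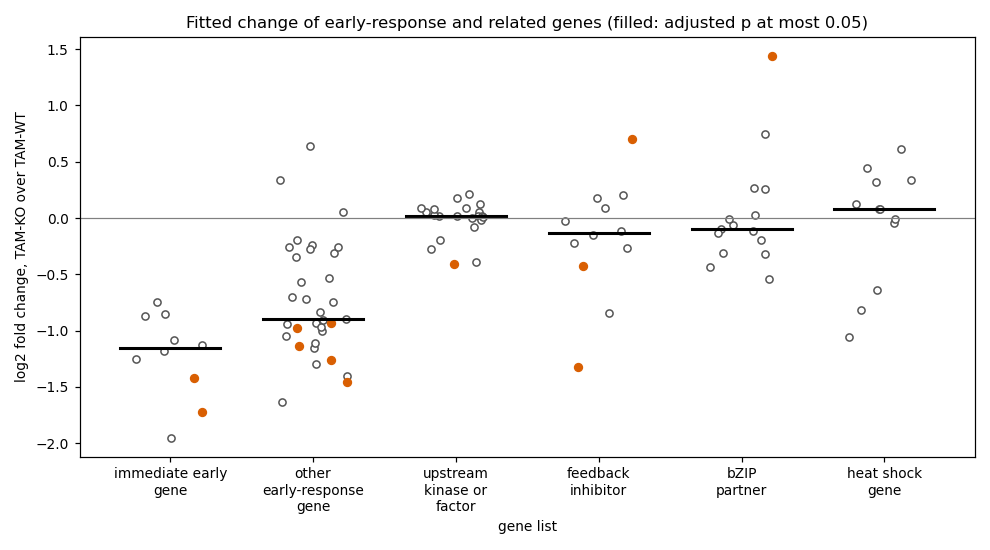
Fitted log2 fold change (vertical axis, TAM-KO over TAM-WT) of each tested gene in 6 lists. Points are genes, spread sideways at random within a list, filled points had an adjusted p of at most 0.05, and bars are list medians, which lie at -1.15 for the immediate early genes, -0.90 for the other early-response genes and 0.02 for the upstream kinases and factors.

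Heat shock genes, which respond to protein damage and also rise in cells under handling stress, were examined beside the members. Of 12 tested, 0 passed in the edgeR fit, with an unadjusted p under 0.05 for 5, whereas DESeq2 called 1 lower and 3 higher, limma 3 higher, and edgeR with KO1 filled 2 higher. Log2 fold changes ran from -1.05 to 0.61 with a median of 0.08. The abundant Hspa8, a constitutive chaperone, measured 1096 to 1337 FPKM in TAM-WT and 1699.96 to 2136 in TAM-KO without overlap, with a log2 fold change of 0.45 ± 0.12 (edgeR adjusted p = 0.0557). With KO1 filled, Hspa8 and the co-chaperone Hsph1 rose by 0.51 and 0.73 on the log2 scale (adjusted p = 0.0402 and 0.0436). Hsp90ab1 had a log2 fold change of 0.12 (edgeR adjusted p = 0.394). The stress-inducible Hspa1a, named after its values were seen, measured 155, 179, 424 and 205 FPKM in WT1 to WT4 and 161, 110.1, 159 and 171 FPKM in KO1 to KO4. It was highest in WT3, as 8 of the 10 members were. WT2 to WT4 lay above all 4 TAM-KO libraries, as for the members, WT2 by a small margin. WT1 lay under KO1, KO3 and KO4 (edgeR adjusted p = 0.125). Hspb1, also named after its values were seen, measured 14.4, 21.4, 40.2 and 17.5 FPKM in WT1 to WT4. In KO1 to KO4 it measured 14.9, 9.75, 11.98 and 14.65 FPKM, with the same split (edgeR adjusted p = 0.11). In Hspa1b, WT2 at 119.9 FPKM lay under KO3 and KO4, at 124 and 127 FPKM. Of the 12 genes, 7 had log2 fold changes above 0. The part of stress or handling in the members' levels was not tested.

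Markers of other cell types also differed between the libraries. The 9 T or NK cell markers summed to 25.6 FPKM in WT1, 2.29 in WT2, 3.47 in WT3 and 2.74 in WT4, and to 85.4 in KO2, 69.3 in KO3 and 27.8 in KO4. WT1, the TAM-WT library of lowest immediate early gene levels, was thus the TAM-WT library of highest T or NK cell marker level. Over the 7 of these markers with a KO1 value the sums were 22.5, 0.79, 1.17 and 1.01 in WT1 to WT4 and 38.5, 83.4, 67.7 and 25.7 in KO1 to KO4. Nkg7, a granule gene of cytotoxic cells, rose by 3.38 ± 0.78 on the log2 scale (edgeR adjusted p = 0.0323). It was the 1 of 7 tested markers that passed in this fit, where 4.58% of all tested genes were called higher. Higher in TAM-KO were 2 of the list with KO1 filled, 2 in DESeq2, 5 in limma and 6 without WT1. The share of all genes called higher was not taken for those fits. Cd4 was the 1 of the 7 tested with a log2 fold change below 0, at -0.29 (edgeR adjusted p = 0.507). Gzmb had a log2 fold change of 3.11 ± 0.97 (edgeR adjusted p = 0.0744). Ncr1, which defines NK cells, was at 0 to 0.19 FPKM in all 8 libraries.

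The 4 monocyte markers summed to 86.7 to 209 FPKM in TAM-WT and to 286 to 429 in KO2 to KO4, and Ly6c2 and Plac8 rose by 1.79 ± 0.44 and 1.41 ± 0.21 on the log2 scale (edgeR adjusted p = 0.0441 and 0.0123). Without WT1 Plac8 passed and Ly6c2 did not (adjusted p = 0.0637). The other two, named after their values were seen, did not pass, Ccr2 at a log2 fold change of -0.05 and Chil3 at 0.82 (edgeR adjusted p = 0.917 and 0.144). The 6 melanoma cell markers summed to 2584, 4308, 1973 and 1918 FPKM in WT1 to WT4 and 4403, 4958, 4648 and 3727 FPKM in KO1 to KO4, and 0 of 6 passed the edgeR test, with an unadjusted p under 0.05 for 5, whereas DESeq2 called 4 and limma 2 of them higher, and edgeR 1 with KO1 filled. WT2, at 4308 within the TAM-KO range of these markers, was high in all 10 members, which is an observation on 1 library. The part of melanoma cell RNA in the members' levels was not tested. The 7 neutrophil markers summed to 21.8 to 32.7 FPKM in TAM-WT, 198 in KO1 and 49.1 to 56.3 in KO2 to KO4, and S100a8 passed at a log2 fold change of 2.68 ± 0.73 (edgeR adjusted p = 0.0481). S100a8 measured 73.5 FPKM in KO1 and 9.13 to 15.8 in KO2 to KO4, and without KO1 its log2 fold change was 1.52 ± 0.33 (adjusted p = 0.0444). It did not pass in the fit with KO1 filled for other genes (adjusted p = 0.0536) or without WT1 (adjusted p = 0.0726). Ly6g, which defines neutrophils, was at 0 to 0.19 FPKM. Csf3r had a log2 fold change of 0.58 (edgeR adjusted p = 0.0737, and 0.0497 with KO1 filled). The 5 dendritic cell markers summed to 4.22 to 9.18 FPKM in the 7 complete libraries. Xcr1 passed at under 1 FPKM in every library (log2 fold change 1.77 ± 0.46, edgeR adjusted p = 0.0435), but not in the fit with KO1 filled for other genes (adjusted p = 0.0507). Cd209a, the most abundant of them, went the other way without passing (log2 fold change -1.01 ± 0.30, edgeR adjusted p = 0.065). Cd209a measured 2.56 to 6.07 FPKM in TAM-WT and 2.09 to 2.57 in KO2 to KO4. Zbtb46 had a log2 fold change of 0.0024 (edgeR adjusted p = 0.995). Of the 5 tested, 4 had log2 fold changes above 0 and 1 below. B cell, fibroblast and endothelial cell markers summed to at most 10.9, 6.19 and 10.1 FPKM in the 7 complete libraries, with 0 called of 2, 4 and 3 tested in edgeR, DESeq2 or limma and 1, 0 and 0 at an unadjusted p under 0.05. The 7 macrophage markers summed to 5426 to 6729 FPKM in TAM-WT and 5899 to 6495 in KO2 to KO4, with 0 called in edgeR and 3 at an unadjusted p under 0.05, whereas DESeq2 called 2 lower and 1 higher and limma 1 higher. C1qa and C1qb, the most abundant of them, had log2 fold changes of 0.13 and 0.07. The part of other cells in the members' lower levels was not tested.

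**Figure D4:**
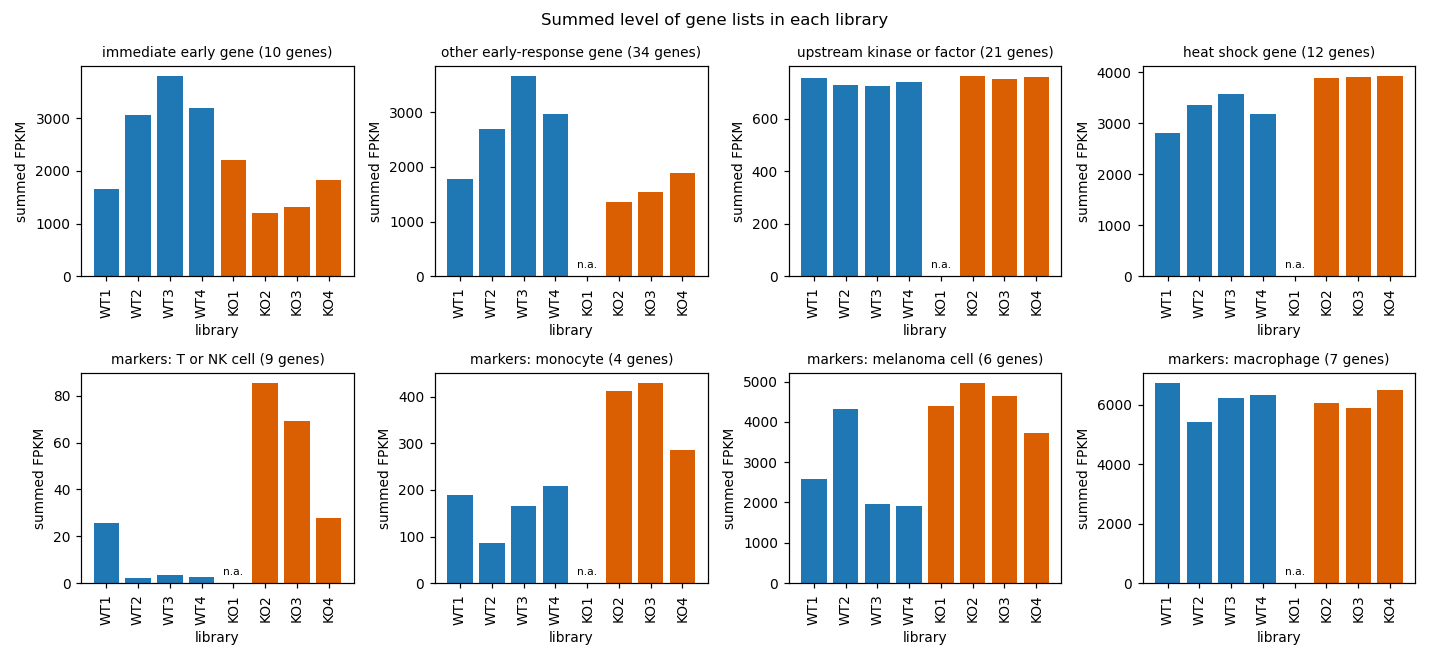
Summed FPKM (vertical axes, from 0) of 8 gene lists in each TAM-WT (blue) and TAM-KO (orange) library, n.a. where KO1 lacks a gene of the list. The immediate early genes sum to 1651 in WT1 against 3065 to 3798 in WT2 to WT4, and the T or NK cell markers to 25.6 in WT1 against 2.29 to 3.47 in WT2 to WT4.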

How the data were processed

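RNA of sorted CD45+F4/80+ TAMs was measured in 4 TAM-WT and 4 TAM-KO libraries, grouped by the genotype and number in their titles. The authors sequenced on BGISEQ-500, aligned with Bowtie2 and quantified with RSEM, and the submitters' processing notes name HISAT2 2.0.4, Bowtie2 2.2.5, RSEM 1.2.12 and GRCm38.p6. The library's strandedness is not given in the sources used here. The expected counts that the authors deposited per gene come from RSEM without normalization. The FPKM values deposited by the authors are relative to transcript length and mapped reads. The authors also deposited log2 ratios, p-values and q-values of their own comparison, and TPM, and these were not used. The members and all lists were chosen with earlier results of these data known.

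The table of KO1 lacks 5311 genes, and 629 of its values stand on the wrong gene and were left out. Expected counts were rounded and fitted by edgeR 4.0.16 under R 4.3.3 (filterByExpr, TMM, glmQLFit and glmQLFTest), genes with a value in all 8 tables on 8 libraries and the others on 7, with Benjamini-Hochberg adjustment over both. The standard error is the fitted log2 fold change divided by the square root of F. No 2 libraries of a group were alike within counting noise (chi-square per degree of freedom from 6.16 to 30.0). limma 3.58.1 on log2(FPKM + 1) or log2(FPKM + 0.1) and DESeq2 1.42.0 were alternatives, as were other filters, thresholds and left-out libraries. Besides the members and Colec11, the genes named are the called and the 2 most abundant genes of each list and the 5 genes most like the members. The exceptions are the melanoma, B cell, fibroblast and endothelial cell markers, for which sums and counts are given without naming genes. Defining markers, genes too low to test, genes that fill out small counts and some heat shock genes are named besides, after their values were known. Gene structure came from GENCODE vM21 (GRCm38), and promoter windows from RefSeq.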

Additional observations from a re-analysis of the deposited data

Results flagged for a closer look

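Of 104 groups of 4 libraries examined for a sample far from the others, 10 held one, where about 5.2 are expected by chance, and none concerned an immediate early gene. In WT1, the summed T or NK cell markers (25.6 FPKM), the summed B cell markers (7.18 FPKM), Nkg7 (5.82 FPKM) and Gzmb (6.55 FPKM) lay far above the other TAM-WT libraries, and Atf4 (216.7 FPKM) lay far below them. In WT2, Spry1 (3.01 FPKM) and the summed endothelial cell markers (10.09 FPKM) lay far above the other TAM-WT libraries and Nab2 (29.02 FPKM) far below. In KO1, S100a8 (73.46 FPKM) and the summed neutrophil markers (198.1 FPKM) lay far above the other TAM-KO libraries. WT1 and KO1 are also the libraries in which the immediate early genes were lowest among TAM-WT and, for 9 of 10 members, highest among TAM-KO.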

How the results depend on the processing

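Of 180 fitted values of the members under 18 alternatives, 0 changed direction, 134 kept their side of the threshold, 38 came to pass it and 8 no longer passed it. Egr2 passed under 16 of the 18 and Atf3 under 12. Members called numbered 10 with the DESeq2 Wald test, 4 without a filter, 1 with KO1 filled from the series-wide table, 0 at an adjusted p of at most 0.01, and, among alternatives chosen after seeing the data, 9 with WT1 and KO1 both left out and 8 with WT1 left out and KO1 filled. Other early-response genes called numbered 17 (1 of them higher), 8, 1, 0, 16 and 12 in the same order, and 3 at a fold change of at least 2. Genes called in either direction numbered 1218 as designed, 2253 with DESeq2, 1226 without a filter and 1059 with KO1 filled. They numbered 36 at an adjusted p of at most 0.01 and 314 at a fold change of at least 2. With both libraries left out they numbered 787, and 1051 with WT1 left out and KO1 filled. The share of genes called lower was not taken for DESeq2, the fit without a filter or the replicate block. Leaving out each library in turn gave 0 to 9 members, 0 to 19 other early-response genes and 77 to 2755 genes, the highest without WT1, WT1 and WT2. Same-numbered libraries were not paired, as their deviations from the group means correlated at -0.417, 0.032, -0.289 and 0.295. With a replicate block, 9 members and 13 other early-response genes were called, among 1080 genes in all. For the 9 members without a KO1 value, WT1 then has no partner and carries no weight in the difference, so that fit is close to leaving WT1 out. DESeq2 and limma used the genes kept by filterByExpr.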
